A study of Homo sapiens with 6 samples.

Results

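Semaphorins, plexins and the other classical axon guidance families were compared between U87 cells with a PCGF1 knockdown and U87 cells with a negative control. U87 is an established cell line from a human glioma. The knockdown cells had received a lentivirus carrying a short hairpin RNA against PCGF1, and the control cells a lentivirus labelled NC. Both kinds of cells therefore carry a lentivirus, and both grew in DMEM with fetal bovine serum; the hairpin sequence, and whether cells were cloned or kept as a pool, are not given in the sources used here. Total RNA was measured on 6 Affymetrix arrays, with 3 biological replicates named in the labels for each group. The sample names add T0 to every knockdown array and T1 to every control array without saying what these mean, so T0 and T1 cannot be told apart from the knockdown. PCGF1, a RING finger protein of the Polycomb group, belongs to the repressive complex PRC1.1, which another subunit, KDM2B, brings to unmethylated CG-rich DNA.

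The genes were taken by symbol from the platform annotation: SEMA, SLIT, ROBO and NTN symbols followed by a number, every PLXN and UNC5 symbol, and NRP1, NRP2, DCC and NEO1. The rule gave 50 genes, measured by 143 probe sets, of 18132 genes and 44988 probe sets with a single symbol. They comprise 20 semaphorins, 9 plexins, 2 neuropilins, 4 netrins, 6 netrin receptors (DCC, NEO1 and UNC5A to UNC5D), 3 SLITs and 4 ROBOs. The remaining members are UNC5CL, a death domain protein related to UNC5 receptors, and UNC50, a Golgi membrane protein that shares only the first letters of its symbol with the netrin receptors. A gene's value on an array is the mean of its probe sets, as log2 signal minus the median of the 6 arrays. These values compare arrays for a given gene, so that no gene's level can be set against another's and no gene can be said to be absent. Each value is also an average over a culture, in which a change in every cell and a change in some cells cannot be told apart.

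Semaphorins are secreted or membrane-bound proteins that steer growing axons and migrating cells. They act through plexins, transmembrane receptors whose cytoplasmic part switches off small GTPases of the R-Ras and Rap families and acts on RHOA. Most secreted class 3 semaphorins need a neuropilin as the binding partner of an A-type plexin. Netrins attract or repel through DCC, NEO1 and the UNC5 receptors, and SLITs repel through ROBO receptors. In glioma these families are studied as regulators of invasion, angiogenesis and contact between tumour cells and vessels.

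The targeted transcript, PCGF1, stood at 74.3% of the control level in the knockdown arrays (log2 fold change -0.43 ± 0.06, SE, limma, adjusted p = 0.00410; exact two-sided permutation p = 0.1, the smallest that 3 against 3 arrays can give). The PCGF1 value rests on 1 probe set. Across all genes 1154 were higher and 840 lower in the knockdown at an adjusted p under 0.05. Array medians lay between -0.00228 and 0.00394. The labels do not state that replicates were separate cultures, so the spread behind each p-value is that between these arrays and may be partly technical. Markers of other lineages could not show whether those cells were present, because the values hold no signal level. Of 6 epithelial, 6 leukocyte, 5 endothelial and 5 neuronal markers, the leukocyte genes CD79A and LYZ passed the test, with log2 fold changes of -0.18 and -0.19. This is 33.3% of the leukocyte markers, beside 11% of all genes, and the other 4 leukocyte markers lay at -0.04 to 0.07. Larger changes that did not pass were those of EPCAM, at 0.29 (limma, adjusted p = 0.0890), and PECAM1, at -0.21 (adjusted p = 0.111). The other epithelial markers lay at -0.08 to 0.06. Of 6 astrocyte and glioma markers 0 passed (log2 fold changes -0.13 to 0.07). The part of these marker differences in the results below was not tested.

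Among the 50 guidance genes 6 rose in the knockdown, 0 fell and 44 did not pass the test. The risen genes were the netrin gene NTN4, the plexin genes PLXNB2, PLXNA4, PLXNA1 and PLXND1, and the neuropilin gene NRP1. Their log2 fold changes ran between 0.19 and 0.44, or 1.14-fold to 1.36-fold. In each of them all 3 knockdown arrays lay above all 3 control arrays, an order also found in 17.1% of all genes. Of all genes tested, 6.36% rose, 4.63% fell and 11% changed in either direction. The share of guidance genes called in either direction, 12%, was near that 11%. By direction, 12% of guidance genes rose beside 6.36% of all genes, and 0% fell beside 4.63%. These differences were not tested. The median log2 fold change of the 50 genes was 0.04, beside -0.01 over all genes, and the median size of change without its sign was 0.08 in the guidance genes and 0.07 in all genes. At an unadjusted p under 0.05 there were 13 guidance genes with higher and 1 with lower values, 14 of 50, beside 26.6% of all genes in either direction.

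**Figure D1:**
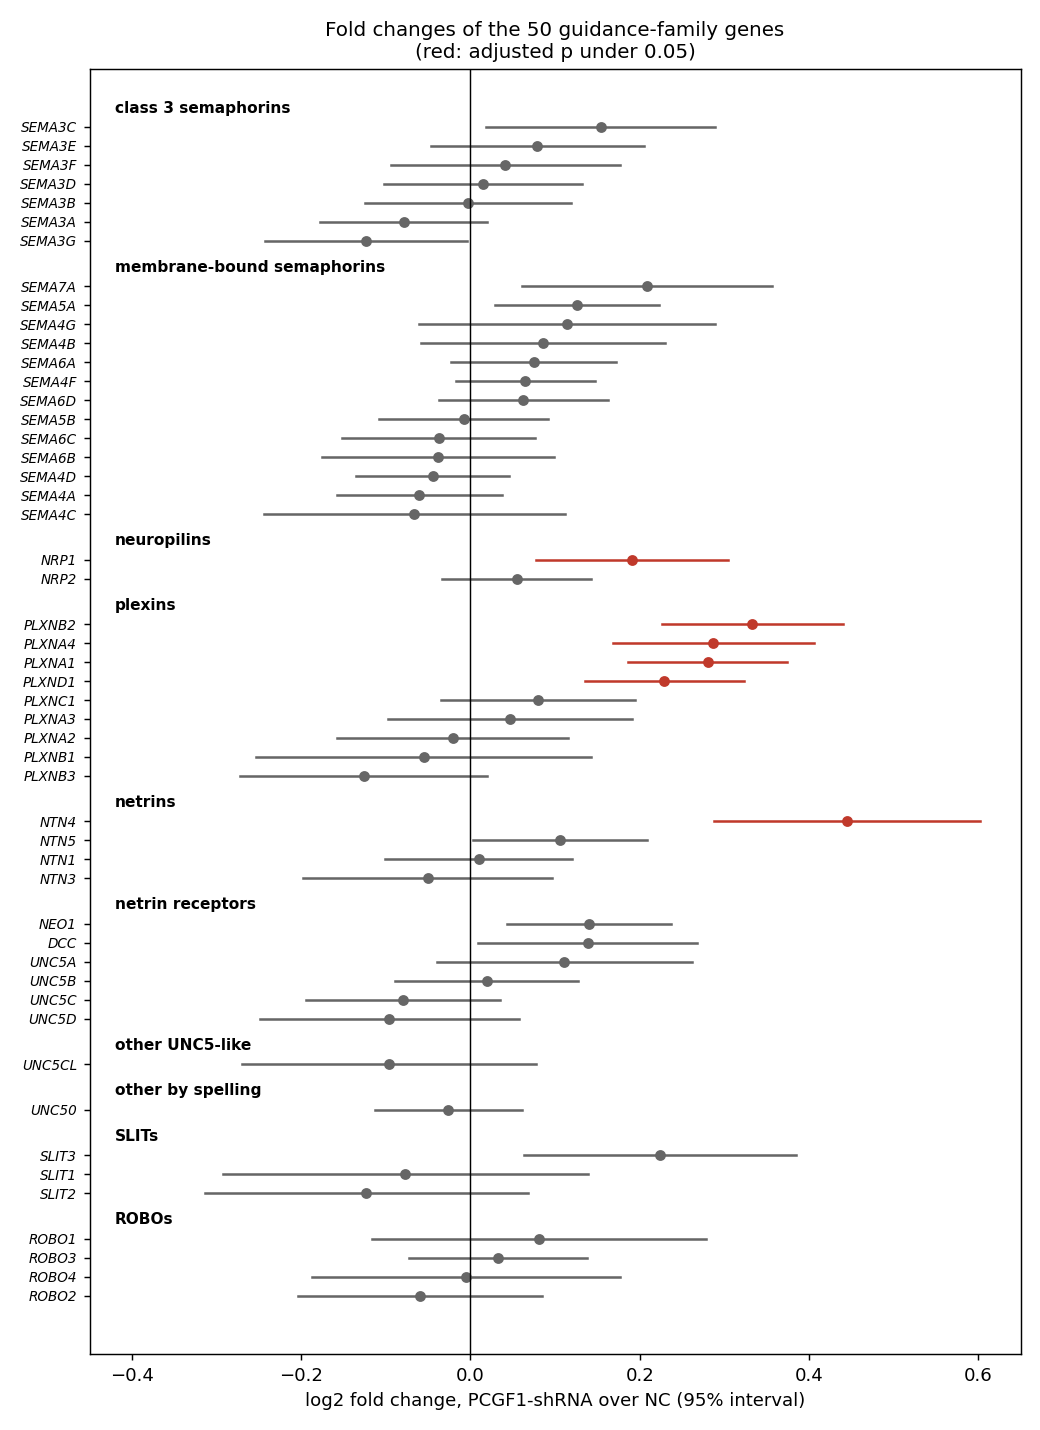
Log2 fold change of each of the 50 guidance-family genes, PCGF1-shRNA over NC, with limma's 95% interval and 3 arrays per group; red marks an adjusted p under 0.05. The 6 red genes, 4 of them plexins, lie to the right of 0, and the intervals of most other genes include 0.

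Receptors and ligands were counted separately. Of 21 receptors (plexins, neuropilins, netrin receptors and ROBOs) 5 rose, or 23.8%. Of 27 ligands (semaphorins, netrins and SLITs) 1 rose, or 3.7%, beside 6.36% of all genes. The median log2 fold change was 0.05 in receptors and 0.02 in ligands. The difference between receptors and ligands was not tested. Among the plexins 4 of 9 rose (44.4%), among the semaphorins 0 of 20, again beside 6.36% of all genes. These shares were not tested.

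PLXNB2, a receptor for class 4 semaphorins such as SEMA4C and SEMA4D, had values of 0.24, 0.11 and 0.14 in the knockdown arrays, against -0.14, -0.20 and -0.17 in the control arrays, both in the order of replicates 1 to 3 as everywhere below. The groups were separated by a wide gap, with knockdown replicate 1 the highest. Means were 0.16 ± 0.07 in the knockdown and -0.17 ± 0.03 in the control (SD, n = 3 each). PLXNB2 thus rose by 0.33 ± 0.05 on the log2 scale (SE, limma, adjusted p = 0.00468; 95% interval 0.23 to 0.44). All 4 of its probe sets were higher, at 0.14 to 0.46, and 3 of them passed the test as single probe sets. The largest, at 0.46, is an _x_at probe set. Without the _s_at and _x_at probe sets, which can also match transcripts of other genes, the PLXNB2 value was 0.26 (adjusted p = 0.0215).

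PLXNA1, which pairs with neuropilins to receive class 3 semaphorins and also binds SEMA6D, had values of 0.17, 0.12 and 0.15 in the knockdown arrays, against -0.19, -0.10 and -0.11 in the control arrays. The knockdown arrays were close together and the control arrays all lay below them. PLXNA1 rose by 0.28 ± 0.04 on the log2 scale (SE, limma, adjusted p = 0.00544; 95% interval 0.19 to 0.37). Its 2 probe sets differed in size, at 0.15 and 0.41, and the larger passed the test on its own.

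PLXNA4, another A-type plexin that works with NRP1 as a SEMA3A receptor and binds class 6 semaphorins, had values of 0.14, 0.08 and 0.12 in the knockdown arrays, against -0.22, -0.07 and -0.23 in the control arrays. Control replicate 2 was nearest to the knockdown arrays but still below them. PLXNA4 rose by 0.29 ± 0.05 on the log2 scale (SE, limma, adjusted p = 0.0127; 95% interval 0.17 to 0.41). Its 3 probe sets were spread widely, at 0.05, 0.32 and 0.49, and with their median in place of the mean the value was 0.24 and did not pass (adjusted p = 0.0720).

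PLXND1, the receptor that binds SEMA3E without a neuropilin and guides blood vessel growth, had values of 0.07, 0.09 and 0.07 in the knockdown arrays, against -0.17, -0.19 and -0.10 in the control arrays. The knockdown arrays differed little from each other and the groups did not overlap. PLXND1 rose by 0.23 ± 0.04 on the log2 scale (SE, limma, adjusted p = 0.0120; 95% interval 0.13 to 0.32). Its 2 probe sets were at 0.18 and 0.27, and neither passed as a single probe set (adjusted p 0.114 and 0.0505, in that order). With the more variable in place of the average the gene did not pass (adjusted p = 0.0626).

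**Figure D2:**
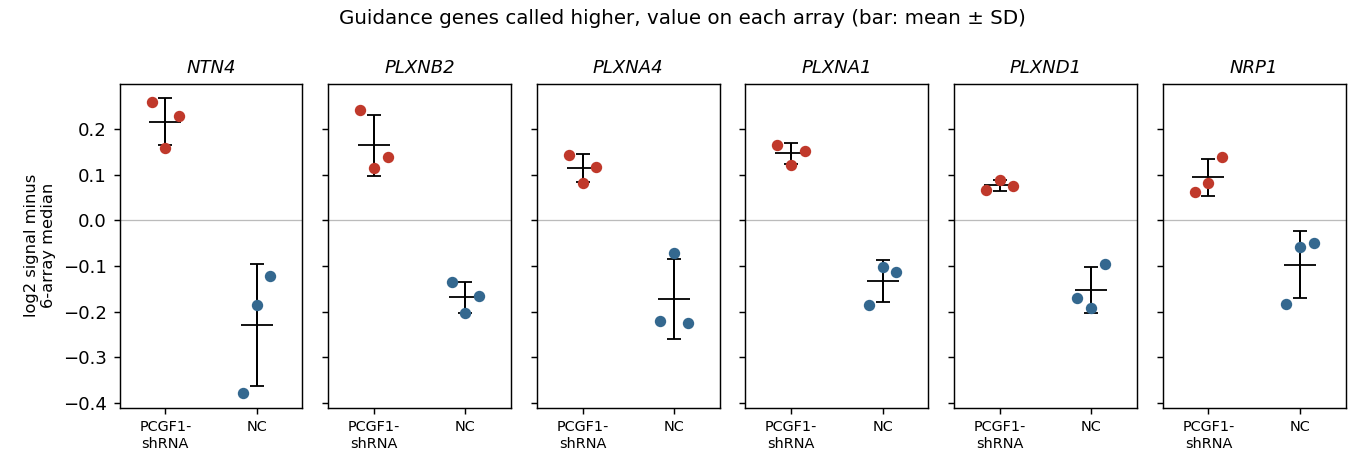
Value of the 6 called guidance genes on each array, as log2 signal minus the median of the 6 arrays; points are arrays, horizontal marks the means and bars the SD of 3 arrays. In every panel the 3 PCGF1-shRNA arrays lie above the 3 NC arrays. The centring of each probe set on its median places 0 near the middle of the 6 arrays.

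The other plexins did not pass the test. Log2 fold changes were 0.08 for PLXNC1, a receptor of SEMA7A, 0.05 for PLXNA3, -0.02 for PLXNA2, -0.06 for PLXNB1, the main SEMA4D receptor, and -0.13 for PLXNB3, a receptor of SEMA5A (adjusted p 0.252 to 0.862). Their groups overlapped. PLXNB1 varied most among the knockdown arrays, with values of -0.04, 0.23 and -0.11 there, against 0.16, 0.04 and 0.06 in the control arrays, and its 95% interval, -0.25 to 0.14, leaves room for changes in either direction. The interval of PLXNB3 was -0.27 to 0.02.

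The neuropilins are coreceptors that bind class 3 semaphorins and vascular endothelial growth factor. NRP1, the coreceptor for SEMA3A, had values of 0.06, 0.08 and 0.14 in the knockdown arrays, against -0.18, -0.06 and -0.05 in the control arrays. Control replicate 1 was the lowest of the 6 arrays. NRP1 rose by 0.19 ± 0.05 on the log2 scale (SE, limma, adjusted p = 0.0451; 95% interval 0.08 to 0.30), and all 6 of its probe sets were higher, at 0.10 to 0.30. This call was at the edge of the threshold: leaving out any single array ended it (adjusted p 0.0730 to 0.135), and without control replicate 1 the value was 0.15. NRP2, the coreceptor for SEMA3F, was at 0.05 ± 0.04 (SE) and did not pass (adjusted p = 0.412), and 1 of its 9 probe sets, at 0.31, passed on its own while the others lay between -0.03 and 0.09.

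Netrins are laminin-related secreted proteins. NTN4, a netrin of basement membranes that binds laminin, had the largest fold change of the 50 genes. Its values were 0.26, 0.16 and 0.23 in the knockdown arrays, against -0.38, -0.19 and -0.12 in the control arrays. The groups did not overlap, and control replicate 1 lay far below the other control arrays. Means were 0.22 ± 0.05 in the knockdown and -0.23 ± 0.13 in the control (SD, n = 3 each). NTN4 rose by 0.44 ± 0.07 on the log2 scale (SE, limma, adjusted p = 0.00691; 95% interval 0.29 to 0.60), number 92 among all genes by size of rise. Without control replicate 1 it was 0.37 (adjusted p = 0.0113). Its 2 probe sets were at 0.28 and 0.61, and the larger passed on its own. NTN1, the classical netrin that acts through DCC and UNC5 receptors, was at 0.01 ± 0.05, NTN3 at -0.05 ± 0.06 and NTN5 at 0.11 ± 0.04 (SE), and these did not pass (adjusted p 0.176 to 0.926).

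**Figure D3:**
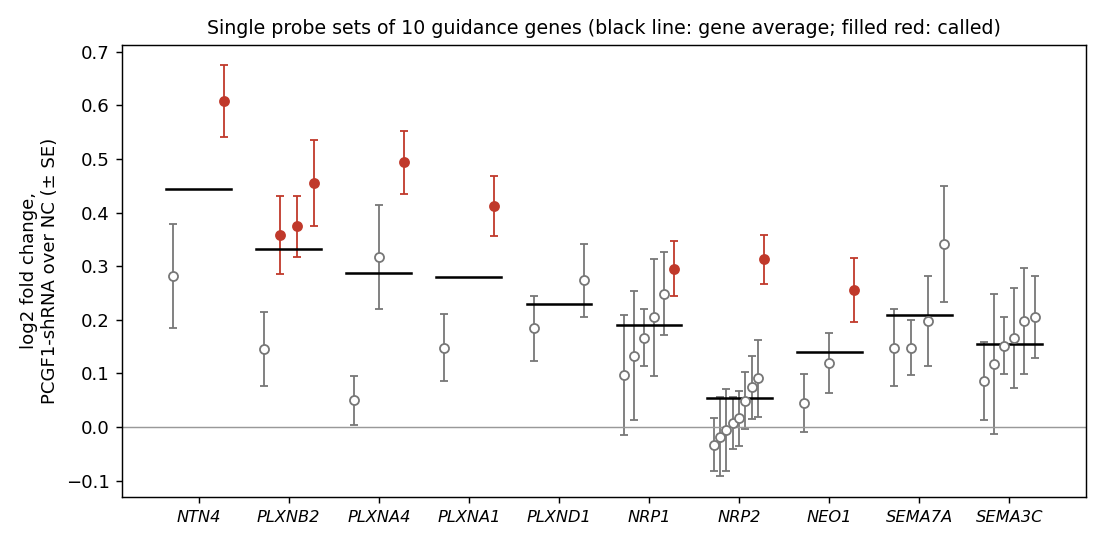
Log2 fold change of every single probe set of 10 guidance genes, PCGF1-shRNA over NC, with SE as bars; filled red points passed the test over all single probe sets and the black line is the gene's average. The probe sets of the 6 called genes are all above 0, but those of PLXNA4 range between 0.05 and 0.49 and most of NRP2 lie near 0.

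The upstream sequences of the risen genes show how differently their start regions are built. RefSeq (GRCh38.p14) gave a window of 250 bases before to 50 after the start for 42 of the 50 genes, and for 5 of the 6 risen ones. The last 150 bases before the start, on the gene's strand, are shown with CG dinucleotides in capitals, the sequence that KDM2B is known to bind when it is unmethylated. CG reads the same on both strands and copies of it cannot overlap. NTN4 lies at chr12:95790765-95790914 (minus strand), PLXNB2 at chr22:50301670-50301819 (minus), PLXNA4 at chr7:132576471-132576620 (minus), PLXNA1 at chr3:126982965-126983114 (plus) and PLXND1 at chr3:129606677-129606826 (minus).
NTN4: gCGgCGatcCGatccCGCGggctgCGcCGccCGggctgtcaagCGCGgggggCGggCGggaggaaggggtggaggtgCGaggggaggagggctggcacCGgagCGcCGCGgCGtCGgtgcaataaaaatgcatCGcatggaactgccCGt
PLXNB2: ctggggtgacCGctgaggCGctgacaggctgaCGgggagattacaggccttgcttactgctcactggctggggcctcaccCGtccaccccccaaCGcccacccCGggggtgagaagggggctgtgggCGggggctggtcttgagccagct
PLXNA4: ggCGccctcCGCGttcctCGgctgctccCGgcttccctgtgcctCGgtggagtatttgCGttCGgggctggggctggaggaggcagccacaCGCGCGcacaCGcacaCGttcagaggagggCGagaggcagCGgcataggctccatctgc
PLXNA1: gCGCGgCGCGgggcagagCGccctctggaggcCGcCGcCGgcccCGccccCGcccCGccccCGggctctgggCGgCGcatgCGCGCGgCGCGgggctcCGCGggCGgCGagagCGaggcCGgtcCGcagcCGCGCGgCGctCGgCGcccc
PLXND1: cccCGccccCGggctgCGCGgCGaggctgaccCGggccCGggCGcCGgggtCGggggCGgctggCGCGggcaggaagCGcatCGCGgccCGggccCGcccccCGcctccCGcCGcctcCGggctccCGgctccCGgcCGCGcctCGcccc

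In these stretches CG occurred 32 times for PLXNA1, 27 times for PLXND1, 21 times for NTN4, 15 times for PLXNA4 and 7 times for PLXNB2. Over the full windows of 300 bases the counts were 54, 52, 40, 30 and 14 in the same order, taking the window with most CG where a gene had several. PLXNA1 and PLXND1 are among the genes with most CG, since 0.564% and 0.956% of 27305 genes had at least as many, while 53.2% had at least as many as PLXNB2. At least 1 CG was present in 96.2% of these 27305 genes, whose median count was 16, lower than that of the tested genes given next. The median count was 40 in the 5 risen genes, 28 in the 37 guidance genes that did not pass and 25 in 14425 tested genes with a window. Counts ran between 14 and 54 in the risen genes and between 3 and 51 in those that did not pass. Of the latter, PLXNA3 had 51 and SEMA3F 47. DNA methylation was not measured, and a link between CG count and change was not tested.

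None of the 20 semaphorin genes passed the test, in either direction, beside 11% of all genes. Among the 7 secreted class 3 members, the largest value was that of SEMA3C, a ligand that uses NRP1 and NRP2. It had values of 0.05, 0.06 and 0.10 in the knockdown arrays, against -0.21, -0.05 and 0.00 in the control arrays, so that the groups were just separated. All 6 of its probe sets were higher, at 0.09 to 0.21, for a log2 fold change of 0.15 ± 0.06 (SE, limma, adjusted p = 0.138). Without control replicate 1 it was 0.09. SEMA3E, the PLXND1 ligand, was at 0.08 ± 0.05, SEMA3F at 0.04 ± 0.06, SEMA3D at 0.02 ± 0.05 and SEMA3B at 0.00 ± 0.05. SEMA3A, the classical repellent that acts through NRP1 and A-type plexins, was at -0.08 ± 0.04 (adjusted p = 0.288) and SEMA3G at -0.12 ± 0.05 (adjusted p = 0.176). Whether the ligands SEMA3E and SEMA3A differ in their change from the receptors PLXND1 and NRP1 was not tested.

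Of the 13 membrane-bound semaphorins, SEMA7A, a membrane-anchored ligand of integrins and PLXNC1, had the largest value. It was at 0.18, 0.01 and 0.22 in the knockdown arrays, against -0.01, -0.15 and -0.06 in the control arrays. Knockdown replicate 2 lay only just above the highest control array, for a log2 fold change of 0.21 ± 0.06 (SE, limma, adjusted p = 0.0771; 95% interval 0.06 to 0.36). Without knockdown replicate 2 it was 0.27 and passed (adjusted p = 0.0318), while it was 0.17 without knockdown replicate 3 (adjusted p = 0.208) and 0.17 without control replicate 2 (adjusted p = 0.198). SEMA5A, a semaphorin with thrombospondin repeats, followed at 0.13 ± 0.04 (adjusted p = 0.0988), with all 5 probe sets higher. The class 4 members, the PLXNB ligands, lay between -0.07 for SEMA4C and 0.11 for SEMA4G, with SEMA4D at -0.04 ± 0.04. The class 6 members, ligands of A-type plexins, lay between -0.04 for SEMA6B and 0.07 for SEMA6A, and SEMA5B was at -0.01 ± 0.04. SEMA4A was the 1 guidance gene whose knockdown arrays were all below its control arrays, by a small margin (log2 fold change -0.06 ± 0.04, adjusted p = 0.418). The 2 probe sets of SEMA4A differed in sign, at -0.16 and 0.03.

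The netrin receptors did not pass either. NEO1, a receptor for netrins and repulsive guidance molecules, came nearest. It had values of 0.08, 0.02 and 0.12 in the knockdown arrays, against -0.10, -0.06 and -0.04 in the control arrays, with no overlap. NEO1 had a log2 fold change of 0.14 ± 0.04 (SE, limma, adjusted p = 0.0726), and 1 of its 3 probe sets, at 0.26, passed on its own. DCC was at 0.14 ± 0.06 (adjusted p = 0.161), with knockdown replicate 1 inside the range of the control arrays. Its 2 probe sets disagreed in size, at 0.25 and 0.03, and with the second, the more variable, the value was 0.03 (adjusted p = 0.905). The dependence receptors UNC5A, UNC5B, UNC5C and UNC5D were at 0.11, 0.02, -0.08 and -0.10 (adjusted p 0.327 to 0.839). UNC5CL was at -0.10 ± 0.08 and UNC50 at -0.03 ± 0.04, and without UNC50 the counts were 6 risen and 0 fallen of 49 genes.

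SLIT and ROBO genes showed no call. SLIT3 had values of 0.07, 0.01 and 0.12 in the knockdown arrays, against -0.01, -0.16 and -0.29 in the control arrays, and rests on a single probe set. Its control arrays were spread more widely than its knockdown arrays, for a log2 fold change of 0.22 ± 0.07 (SE, limma, adjusted p = 0.0802), with 0.29 and an adjusted p = 0.0349 without control replicate 1. Without control replicate 3 it was 0.16 (adjusted p = 0.184) and without knockdown replicate 3 it was 0.20 (adjusted p = 0.207). SLIT1 and SLIT2, the repellents of midline axons, were at -0.08 ± 0.09 and -0.12 ± 0.08, with intervals of -0.29 to 0.14 and -0.31 to 0.07. The receptors ROBO1, ROBO2 and ROBO3 and the vascular receptor ROBO4 were at 0.08, -0.06, 0.03 and 0.00 (adjusted p 0.607 to 0.979), and their groups overlapped. ROBO1 had the widest interval of the 4, -0.12 to 0.28.

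The groups did not overlap for 16 of the 50 guidance genes, 15 with higher and 1 with lower knockdown values. Over all genes the groups did not overlap for 32.7%, with 17.1% higher and 15.5% lower. In both directions together the share of guidance genes, 32%, was near the background, while by direction 30% were higher and 2% lower. These shares were not tested, and the genes were chosen with earlier results known. The 15 were the 6 risen genes and SEMA7A, SLIT3, SEMA3C, NEO1, SEMA5A, NTN5, SEMA6A, SEMA4F and NRP2. Of these, SEMA6A (-0.03 to 0.24), SEMA4F (-0.01 to 0.13) and NRP2 (-0.03 to 0.31) had probe sets of both signs. Control replicate 1 was the lowest array in NTN4, NRP1, NRP2, SEMA3C, NEO1, NTN5 and PLXNA1, and control replicate 3 in SLIT3, PLXNA4, SEMA5A, SEMA6A and SEMA4F.

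Probe sets of the same gene often differed. Of the 42 guidance genes with several probe sets, 16 had all of them higher, 7 had all of them lower and 19 had probe sets of both signs. These sign counts were not made over all genes or all probe sets. By gene averages, 29 of the 50 guidance genes were higher, beside 8457 of 18132 genes, and the difference was not tested. Of the 143 probe sets 91 were higher, and 10 passed the test over all single probe sets, all of them higher. They belong to NTN4, PLXNA1, PLXNA4, PLXNB2 (3 probe sets), NRP1, NRP2, NEO1 and DCC, against 7.42% of all single probe sets called in either direction.

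The genes through which these receptors act were read from 3 lists of partners, 91 genes of which 86 were measured. Of these 9 rose, 4 fell and 73 did not pass, and their median log2 fold change was 0.02. The share called was 15.1%, beside 11% of all genes.

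Of 40 measured semaphorin and plexin partners 3 rose and 2 fell (median 0.02). The share called, 12.5%, was near the 11% of all genes. RND3, an antagonist of RHOA signalling that also binds plexins, had values of -0.23, -0.21 and -0.22 in the knockdown arrays, against 0.20, 0.19 and 0.19 in the control arrays. RHOA, the GTPase that drives contraction downstream of B-type plexins, had values of -0.18, -0.16 and -0.21 in the knockdown arrays, against 0.19, 0.17 and 0.15 in the control arrays. In both genes the arrays of a group were tightly placed and far from the other group. RND3 fell by 0.41 on the log2 scale (SE 0.04, limma, adjusted p = 0.000632) and RHOA by 0.36 (SE 0.04, adjusted p = 0.00134), with all probe sets lower. DPYSL2, a microtubule-binding protein that relays SEMA3A signals, rose by 0.23 ± 0.04 (adjusted p = 0.00973). CDK5, a kinase that phosphorylates it, rose by 0.18 ± 0.04 (adjusted p = 0.0294), a call lost when any 1 array was left out. RRAS2, a relative of the plexin substrate R-Ras, rose by 0.22 ± 0.05 (adjusted p = 0.0239), a call that held without knockdown replicate 2 and ended without any other array (adjusted p up to 0.0756). RRAS itself was at 0.11 (adjusted p = 0.284), RAC1 at -0.05 and the plexin-associated receptor kinase MET at 0.00.

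Of 26 measured netrin and repulsive guidance partners 2 rose and 1 fell (median 0.02), so that 11.5% were called, also near the 11% of all genes. NTNG1, a membrane-anchored relative of the netrins that does not bind DCC, had values of 0.30, 0.23 and 0.26 in the knockdown arrays, against -0.28, -0.20 and -0.24 in the control arrays. The arrays of each group lay close together and the groups far apart. NTNG1 rose by 0.51 ± 0.04 on the log2 scale (SE, limma, adjusted p = 0.000494), a larger value than that of NTN4. Its binding partner LRRC4C was at 0.05 (adjusted p = 0.690). MAGED1, which binds the cytoplasmic part of UNC5A, rose by 0.26 ± 0.04 (adjusted p = 0.00431). ADORA2B, an adenosine receptor, fell by 0.20 (SE 0.04, adjusted p = 0.0180), on 1 probe set. That call ended without knockdown replicate 1 or 2 and without control replicate 2 or 3 (adjusted p up to 0.0678).

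Of 20 measured SLIT and ROBO partners 4 rose and 1 fell (median 0.05). The share called was 25%, beside 11% of all genes, and the difference was not tested. SDC2, a heparan sulfate proteoglycan, had values of 0.20, 0.17 and 0.13 in the knockdown arrays, against -0.25, -0.14 and -0.17 in the control arrays, and rose by 0.35 ± 0.04 (SE, limma, adjusted p = 0.00320). SDC1, of the same family, rose by 0.28 ± 0.05 (adjusted p = 0.00947). ENAH, an actin regulator that binds ROBO receptors, had values of 0.20, 0.14 and 0.15 in the knockdown arrays, against -0.18, -0.09 and -0.13 in the control arrays, and rose by 0.30 ± 0.04 (adjusted p = 0.00476). The tyrosine kinases that act on ROBO receptors moved apart. ABL1 rose by 0.34 ± 0.06 (adjusted p = 0.0150), with widely spread values of 0.24, 0.07 and 0.32 in the knockdown arrays, against -0.15, -0.16 and -0.09 in the control arrays, and ABL2 fell by 0.19 (SE 0.04, adjusted p = 0.0283). The ABL1 call was lost without knockdown replicate 1 and without control replicates 1 or 2 (adjusted p up to 0.0578), and the ABL2 call without any array other than control replicate 2.

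**Figure D4:**
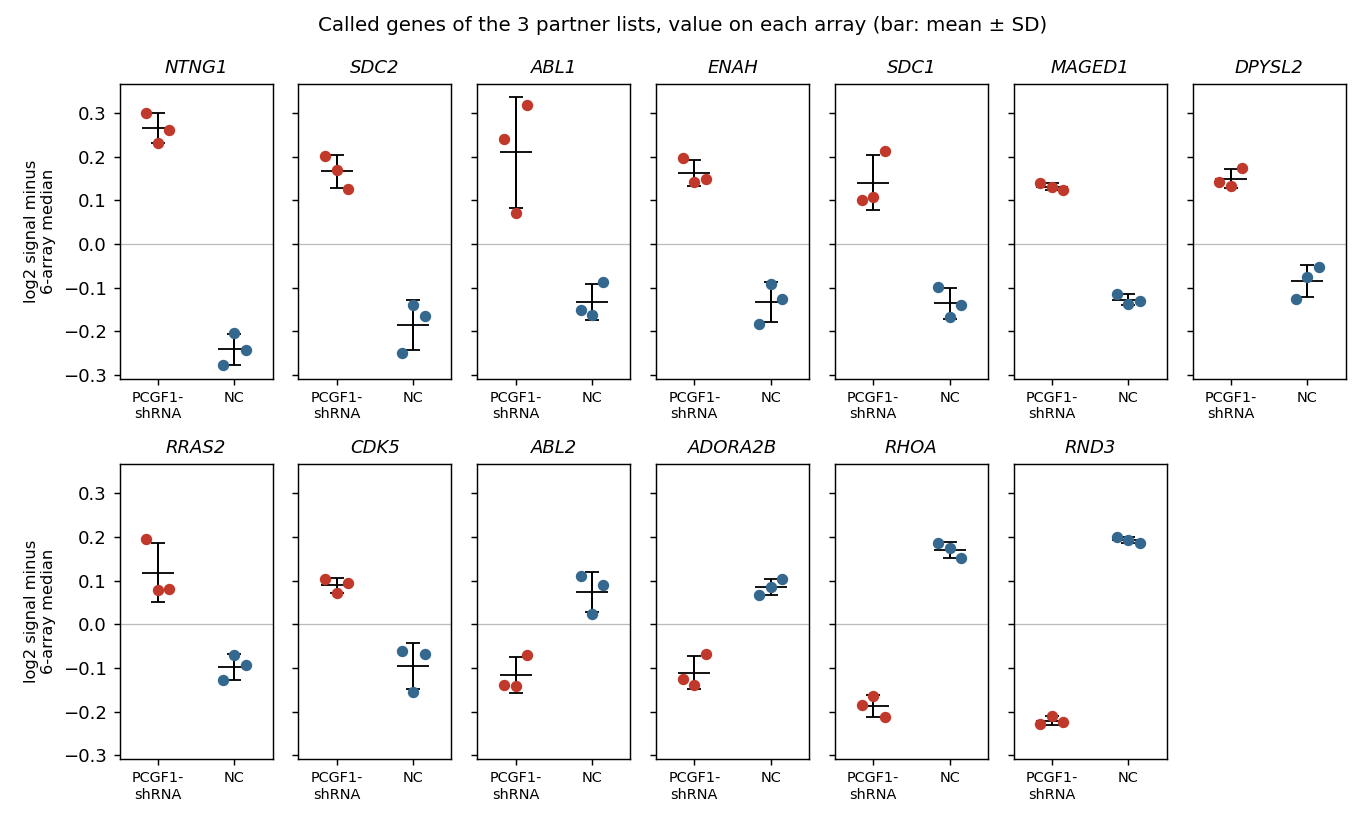
Value of the 13 called genes of the partner lists on each array, as log2 signal minus the median of the 6 arrays; points are arrays, horizontal marks the means and bars the SD of 3 arrays. The PCGF1-shRNA arrays lie above the NC arrays in the first 9 panels, NTNG1 to CDK5, and below them in the last 4, ABL2 to RND3.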

How the data were processed

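RNA from 6 arrays, 3 PCGF1-shRNA and 3 NC, was compared. The deposited table holds log2 values made by the authors with RMA, per the submitters' processing notes (background correction, normalization and summary of probes; no version given). The log base is not recorded and is taken from RMA. The values also show that each probe set was centred on the median of its 6 arrays (largest remaining median 4.85e-07), a step no source describes. The table has 49395 probe sets; 102 Affymetrix controls were left out, and of the rest 44988 had 1 gene symbol in the platform annotation, 1832 several and 2473 none. A probe set with several symbols was not used, which left out 1 naming a guidance gene. Gene IDs of all 143 guidance probe sets matched RefSeq, with 0 symbols differing. Probe sets were averaged per gene. Groups were compared by limma 3.58.1 in R 4.3.3 (lmFit, eBayes, two-sided, no covariates, all 6 arrays), with Benjamini-Hochberg adjustment over 18132 genes and a threshold of 0.05; single probe sets were adjusted over 44988. The number of arrays limits the precision. The script was tested on simulated data. Guidance genes and lists were chosen with earlier results of these data known. Named were PCGF1, every guidance gene and the called partner genes, up to 4 risen and 4 fallen of each list. Outside this rule, the uncalled partners RRAS, RAC1, MET and LRRC4C and some lineage markers were also named. Alternatives were other normalizations, array weights, a replicate block, other ways to combine probe sets, robust variance and leaving out each array.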

Additional observations from a re-analysis of the deposited data

How the results depend on the processing

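The 6 risen guidance genes kept a positive fold change in all 14 alternatives run on gene values. NTN4, PLXNB2 and PLXNA1 passed in all 14, PLXNA4 failed with the median of probe sets, PLXND1 with the most variable probe set, and NRP1 failed in 10. Between 4 and 6 guidance genes were called in these alternatives, all higher. When probe sets were tested singly, 8 guidance genes (16%) had at least 1 called, beside 12.5% of all genes under the same rule. NRP2 (most variable probe set), SEMA7A (without knockdown replicate 2) and SLIT3 (without control replicate 1) passed once each. Leaving out an array gave 5 to 6 guidance genes, 9 to 10 partner genes and 980 to 1402 genes in all, against 6, 13 and 1994; the PCGF1 value ran between -0.48 and -0.39. Tested as single probe sets, 20 partner genes (23.3%) had at least 1 called probe set, beside the same 12.5% of all genes. The difference was not tested. With the replicate number as a block, 5 guidance genes, 9 partner genes and 1036 genes in all were called, and NRP1 did not pass (adjusted p = 0.0661). Deviations of same-numbered arrays correlated at -0.05 to 0.01, and 2 of 6 arrays correlated best with their own number, so the numbers were not taken to pair the arrays. Quantile normalization and median centring changed no guidance call. The planned filter on dim probe sets was not run, because centred values hold no signal level, and for the same reason a gene's distance from background limits every value in an unknown way.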
